A study of Mus musculus with 10 samples.

Results

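H19, Igf2 and Cdkn1c are imprinted genes of distal mouse chromosome 7, and their transcript levels are described here together with those of Phlda2, Nap1l4, Tssc4, Cd81 and Lsp1, genes of the same cluster or beside it. These 8 genes were taken by name, with earlier results of these data known. The expression table of 11228 genes held 7 of them, all 7 were among the 10993 genes tested, and Phlda2 was not analysed here.

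The libraries came from mouse myotubes, the multinucleate cells formed by fusion of myoblasts, after 2 days of differentiation in vitro. The muscle lncRNA Charme was depleted in them with gapmers, short antisense strands whose DNA core lets RNase H cut the matching transcript. Polyadenylated RNA was sequenced from 3 groups of 2 biological replicates (A and B): control cells given the gapmer GAP-scr, cells given GAP-2, and cells given the set named GAP-2/3. Both depleted groups shared the same GAP-scr libraries as controls. All 3 groups were gapmer-treated, no untreated myotubes were analysed here, and the labels name neither the cell line nor the strain. ChIRP-seq maps where an RNA sits on chromatin, by sequencing DNA captured along with it. Here even and odd probe pools against Charme, probes against LacZ and input chromatin gave 1 library each. Its peaks were deposited as 1 merged list. Charme itself is not analysed here.

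In an imprinted cluster one parental allele of a gene is silenced according to its origin. H19, a long non-coding RNA, is expressed from the maternal allele and Igf2, a fetal growth factor that also acts in muscle differentiation, from the paternal allele, and both depend on a shared control region where the insulator protein CTCF binds the unmethylated maternal copy. Cdkn1c, which encodes the cyclin-dependent kinase inhibitor p57, and Phlda2, a growth-restraining gene best known from placenta, are maternally expressed from the adjacent Kcnq1 domain, which has a control region of its own. Nap1l4 (a histone chaperone), Tssc4 (a factor of spliceosome assembly) and Cd81 (a tetraspanin of the cell membrane) lie at or near that domain and show imprinting mainly in placenta. Lsp1, an actin-binding protein, lies on the far side of H19 from Igf2. Alleles were not distinguished in these data.

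Both H19 and Igf2 also carry a microRNA, and the mature sequences are shown because they are separate products of the transcripts measured. The hairpin of miR-675 lies within H19 and that of miR-483 within Igf2. The sequences are those of RefSeq (GRCm38.p6, minus strand of chromosome 7), 5′ to 3′, with the seed, bases 2 to 8, in capitals. The libraries of polyadenylated RNA do not measure mature microRNAs, so no level is given for them.
mmu-miR-675-5p (chr7:142577112-142577133): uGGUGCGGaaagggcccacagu
mmu-miR-675-3p (chr7:142577078-142577099): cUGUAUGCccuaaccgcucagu
mmu-miR-483-5p (chr7:142654968-142654989): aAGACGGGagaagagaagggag
mmu-miR-483-3p (chr7:142654932-142654952): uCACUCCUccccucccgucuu
No seed is shared among these 4.

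Igf2 is transcribed from several promoters, and a single FPKM value per gene does not say which of them was used. RefSeq lists 4 promoters for Igf2, on the minus strand, and the 100 bases before each start are printed from the most upstream start to the most downstream. Capitals mark the GC box GGGCGG, searched on both strands.
Igf2 start 1 (chr7:142666817-142666916): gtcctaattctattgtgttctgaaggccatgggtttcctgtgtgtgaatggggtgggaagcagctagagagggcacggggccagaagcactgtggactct
Igf2 start 2 (chr7:142661272-142661371): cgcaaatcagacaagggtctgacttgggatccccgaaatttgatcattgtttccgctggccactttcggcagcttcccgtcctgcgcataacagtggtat
Igf2 start 3 (chr7:142658805-142658904): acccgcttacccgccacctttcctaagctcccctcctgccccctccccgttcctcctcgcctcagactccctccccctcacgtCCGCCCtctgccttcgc
Igf2 start 4 (chr7:142657497-142657596): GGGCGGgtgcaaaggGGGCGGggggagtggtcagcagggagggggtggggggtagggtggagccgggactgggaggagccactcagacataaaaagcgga
Over the 250 bases before the start, GC content was 50.8%, 47.6%, 68.8% and 66.0% in this order, against a median of 52.4% over 32817 RefSeq promoters. Starts 3 and 4, the GC-rich pair, held 1 and 2 GC boxes in that window, and starts 1 and 2 held 0; a GC box was found in 32.7% of all promoters. The E-box CANNTG, searched on both strands, occurred at 2 places before start 1 and at 0 places before the others, and in 66.2% of all promoters. Neither CAGCTG, one form of that E-box, nor TATAAA was found in any of the 4 windows; they occurred in 13.0% and 12.4% of all promoters. These are matches of letters, not sites of binding.

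Expression was measured as FPKM, fragments corrected for how long the transcript is and how many fragments were mapped, a unit that allows levels to be set side by side between genes. In control myotubes H19 was the highest of the 7 genes, at 3449 ± 293 FPKM (mean ± SD, n = 2), and ranked 13th and 12th among the 11228 genes of its libraries. Igf2 followed at 487 ± 65.3 FPKM and Cd81 at 385 ± 63.2. Cdkn1c stood at 142 ± 8.14, Lsp1 at 125 ± 2.36, Nap1l4 at 53.9 ± 5.30 and Tssc4 at 24.2 ± 0.873 FPKM. In that order the ranges of neighbouring genes did not overlap between the GAP-scr libraries. In GAP-2 libraries the order was H19, Cd81, Igf2, Lsp1, Cdkn1c, Nap1l4 and Tssc4, again without overlap between neighbours. In GAP-2/3 libraries Cdkn1c stood below Nap1l4, and of all neighbouring pairs this one alone overlapped in its library ranges. Cdkn1c thus moved from the 4th to the 5th and 6th place among the 7 genes, and Igf2 from the 2nd to the 3rd.

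**Figure D1:**
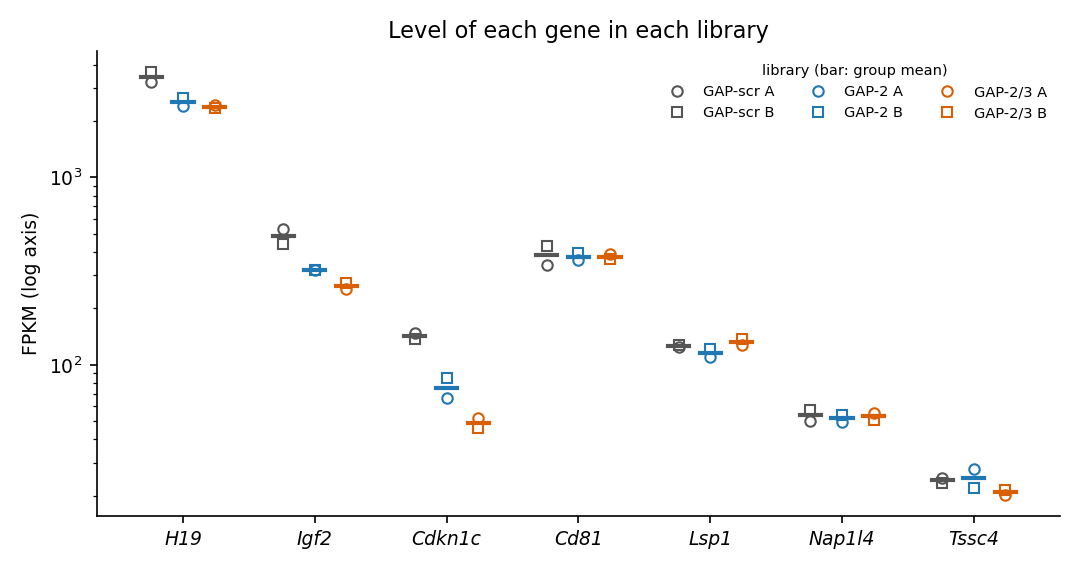
FPKM of the 7 genes (logarithmic axis) in each of the 6 libraries, circles for replicate A and squares for replicate B, with a bar at each group mean. H19, Igf2 and Cdkn1c lie lower in all 4 libraries of the depleted groups than in both GAP-scr libraries, and the other 4 genes show no such order.

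Some facts of the whole table bear on what follows. FPKM values keep no read counts, so the sequencing depth is unknown, and median FPKM ran from 11.9 to 13.3 over the libraries. The A libraries of GAP-scr and GAP-2 were high in Rn45s, the precursor of ribosomal RNA (3387 and 4090 FPKM), and the other 4 libraries held 93.2 to 176. Changes are differences of log2(FPKM + 1), a scale that understates changes of low genes, fitted with limma over all 10993 genes and called at a Benjamini-Hochberg adjusted p of 0.05. The median change of all genes was 0.07 for GAP-2, 0.13 for GAP-2/3 and 0.10 for the mean of both groups against GAP-scr. With the libraries scaled to one median these became 0.00, 0.03 and 0.02. The split of calls moved with that scaling, from 460 lower and 1144 higher genes to 648 and 708 for GAP-2, from 1242 and 3081 to 1789 and 1928 for GAP-2/3, from 1052 and 2698 to 1556 and 1618 for both groups, and from 401 and 714 to 424 and 464 for GAP-2/3 against GAP-2.

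Markers of the cells were read in the same libraries. All 6 myotube markers (Myog, Myh3, Acta1, Ckm, Tmem8c and Chrng) were present. Their summed level, most of it Acta1, was 9247 to 9819 FPKM in the controls, 5142 to 5168 with GAP-2 and 5396 to 5872 with GAP-2/3. By limma 6 of 6 were lower in GAP-2 and 4 of 6 in GAP-2/3, beside 4.18% and 11.3% of all genes tested. Myog and Myh3 did not pass in GAP-2/3, where they stood at 92.6% and 82.2% of the control mean. Of the myoblast markers 2 of 3 were in the table (Myf5 and Id3), with sums of 39.4 to 42.1, 53.2 to 61.4 and 85.8 to 90.1 FPKM in the same order of groups. Of the fibroblast markers 3 of 4 were in the table, with sums of 832 to 846, 706 to 864 and 512 to 588 FPKM, most of it Col1a1. These 3 did not move together: in GAP-2/3 Col1a1 changed by -0.92, and Dcn and Pdgfra by 1.48 and 0.93, all past the threshold. Of the leukocyte and macrophage markers 2 of 6 were in the table (Cd68 and Cd14), with sums of 3.12 to 4.04, 7.28 to 7.70 and 5.25 to 5.55 FPKM; the adipocyte list had 1 of 4 and the endothelial list 0 of 4. Markers of differentiation thus differed between the groups, though not all of them in both depleted groups, and their part in the results below was not tested. In bulk RNA fewer cells of a type and less RNA per cell cannot be told apart.

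The first question was which genes of the cluster changed when Charme was depleted. H19, Igf2 and Cdkn1c fell in both groups, and no change of the other 4 genes passed the test in any comparison. Against GAP-scr, 3 of 7 genes were lower in GAP-2, where 4.18% of all genes tested were lower and 10.4% higher. The same 3 were lower in GAP-2/3, where 11.3% of all genes were lower and 28.0% higher, and for the mean of both groups, with 9.57% and 24.5%. The genes were chosen with earlier results of these data known, so the counts beside these shares are a description. None of the 7 was higher in these comparisons by limma, also at an unadjusted p of 0.05 (0 of 7). The median change of the 7 genes was -0.12 in GAP-2, -0.20 in GAP-2/3 and -0.08 for both. H19, Igf2 and Cdkn1c are also the 3 members in which all 4 libraries of the depleted groups lay below both GAP-scr libraries, a pattern found in 14.0% of all genes tested (1539 of 10993).

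H19, the non-coding RNA of the maternal allele, was lower in every depleted library than in either control. It was measured at 3242 and 3656 FPKM in the control replicates A and B, 2392 and 2666 in GAP-2, and 2421 and 2345 in GAP-2/3. The depleted libraries lay below the controls without overlap, and GAP-2 and GAP-2/3 overlapped with each other. The group means were 73.3% and 69.1% of the control mean. By limma the change was -0.45 ± 0.12 (SE, adjusted p = 0.0293) in GAP-2 and -0.53 ± 0.12 (adjusted p = 0.00565) in GAP-2/3. For the mean of both groups it was -0.49 ± 0.10 (adjusted p = 0.00493). H19 remained among the most abundant transcripts, at ranks 20 to 28 in the depleted libraries. The call in GAP-2 was lost when a GAP-2 library was left out (adjusted p = 0.259 without A and 0.128 without B), when a GAP-2/3 library was left out (0.0735 and 0.0743) and when GAP-2/3 did not enter the fit (0.0764). The call in GAP-2/3 was lost without either of its libraries (0.0592 without A, 0.0524 without B), and that for both groups held with each library left out.

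Igf2, the growth factor of the paternal allele, fell in both groups. It stood at 533 and 441 FPKM in GAP-scr, 321 and 321 in GAP-2, and 254 and 272 in GAP-2/3. No library of one group overlapped with those of another, and GAP-2/3 held the lowest values. The means were 65.9% and 54.0% of the control mean. The change by limma was -0.59 ± 0.12 (adjusted p = 0.00727) in GAP-2, -0.88 ± 0.12 (adjusted p = 0.000298) in GAP-2/3 and -0.74 ± 0.10 (adjusted p = 0.000458) for both groups. In GAP-2 the call was lost without GAP-2 replicate A (adjusted p = 0.0517), without GAP-2 replicate B (0.0554), and without both libraries high in Rn45s, where the change was -0.45 (0.0524). The span of Igf2 overlaps by 7137 bases with Igf2os, a non-coding gene; the sources used here do not say whether counting used the strand, so reads of one may be counted in the other.

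Cdkn1c, the inhibitor p57 that restrains the cell cycle in differentiating muscle, had the lowest log2 change of the 7 genes. Its level was 148 and 137 FPKM in GAP-scr, 66.3 and 85.0 in GAP-2, and 51.8 and 46.1 in GAP-2/3. The 3 groups stood apart, with GAP-2/3 lowest. The means were 53.1% and 34.3% of the control mean. By limma the change was -0.92 ± 0.13 (adjusted p = 0.00121) in GAP-2, -1.52 ± 0.13 (adjusted p = 1.22e-05) in GAP-2/3 and -1.22 ± 0.11 (adjusted p = 2.78e-05) for both groups. Its rank among all genes went from 529 and 591 in the controls to 1290 and 1006 in GAP-2 and to 1754 and 1946 in GAP-2/3. These 3 calls held with each library left out, with both libraries high in Rn45s left out and under both other scalings.

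The 4 other members had smaller differences. Cd81 stood at 341 and 430 FPKM in GAP-scr, 362 and 393 in GAP-2, and 389 and 368 in GAP-2/3, so the depleted libraries lay within the range of the controls. For both groups its change was -0.02, with a 95% interval of -0.26 to 0.22. Lsp1 stood at 124 and 127, 110 and 121, and 128 and 137 FPKM in the same order. Both GAP-2 values of Lsp1 were below the controls and both GAP-2/3 values above them. Its change was -0.12 in GAP-2 (interval -0.35 to 0.11) and 0.08 in GAP-2/3 (-0.16 to 0.31), and the latter became -0.04 with the libraries scaled to one median. Nap1l4 stood at 50.2 and 57.7, 49.6 and 54.2, and 55.0 and 51.1 FPKM, with overlap between all groups and a change of -0.04 for both (interval -0.25 to 0.18). Tssc4, the lowest of the 7, stood at 24.8 and 23.5, 27.8 and 22.0, and 20.3 and 21.5 FPKM. Its GAP-2/3 libraries lay below the others, with a change of -0.20 (interval -0.47 to 0.08, adjusted p = 0.227 by limma), while its GAP-2 libraries spanned the controls. The intervals for both groups reach down to -0.32 for Tssc4 and less far for the other 3. The span of Lsp1 overlaps by 3789 bases with Prr33 and that of Cd81 by 937 bases with R74862, both annotated as non-coding. The limit on counting given for Igf2 applies to these genes too.

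**Figure D2:**
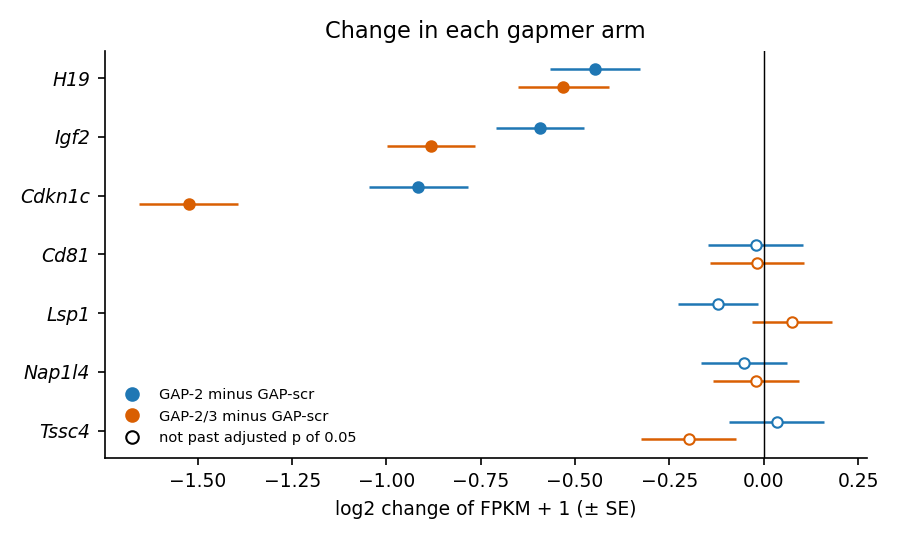
Change of each gene against GAP-scr on the log2(FPKM + 1) scale, for GAP-2 and GAP-2/3, with bars of 1 SE and open points where the adjusted p was not below 0.05. Cdkn1c, at -0.92 and -1.52, lies farthest from 0, and the points of Cd81, Lsp1, Nap1l4 and Tssc4 lie within 0.20 of it.

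The 2 depleted groups, or arms, were next set against each other. Between GAP-2/3 and GAP-2, 1 of 7 genes was lower, where 3.65% of all genes tested were lower and 6.50% higher. This was Cdkn1c, with a difference of -0.61 ± 0.13 (adjusted p = 0.0136 by limma). That call was lost without GAP-2 replicate B (adjusted p = 0.154), GAP-2/3 replicate A (0.0997) or GAP-2/3 replicate B (0.154), with differences between -0.69 and -0.43. For Igf2 the difference was -0.29 ± 0.12 (interval -0.54 to -0.03, adjusted p = 0.141 by limma). With only the libraries of these 2 groups in the fit Igf2 passed (0.0353), likewise without either GAP-scr library (0.0355 and 0.0351). For H19 it was -0.08 (interval -0.34 to 0.18). Tssc4 and Lsp1 did not overlap between the arms, with differences of -0.23 (interval -0.51 to 0.04) and 0.20 (-0.03 to 0.43), and did not pass. The arms did not overlap for 4 of the 7 genes (Igf2, Cdkn1c, Tssc4 and Lsp1), and for 61.5% of all genes tested.

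A ratio of 2 genes within a library does not depend on how the library was scaled. The log2 ratio of Igf2 over H19 was -2.60 and -3.05 in GAP-scr, -2.89 and -3.05 in GAP-2, and -3.25 and -3.10 in GAP-2/3. The controls spanned much of the range, and both GAP-2/3 values were below them. The ratio of Cdkn1c over Igf2 was -1.84 and -1.68 in GAP-scr, -2.26 and -1.91 in GAP-2, and -2.27 and -2.54 in GAP-2/3. Every depleted library had less Cdkn1c relative to Igf2 than either control. The mean of the 4 depleted libraries differed from the controls by -0.25 for Igf2 over H19 (exact permutation test, two-sided, p = 0.4) and by -0.48 for Cdkn1c over Igf2 (p = 0.133, exact). Adjusted over the 2 pairs these were 0.4 and 0.267. The smallest p that this exact test can give with these 6 libraries is 0.133. The first difference was -0.025 without GAP-scr replicate A and -0.47 without GAP-scr replicate B.

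**Figure D3:**
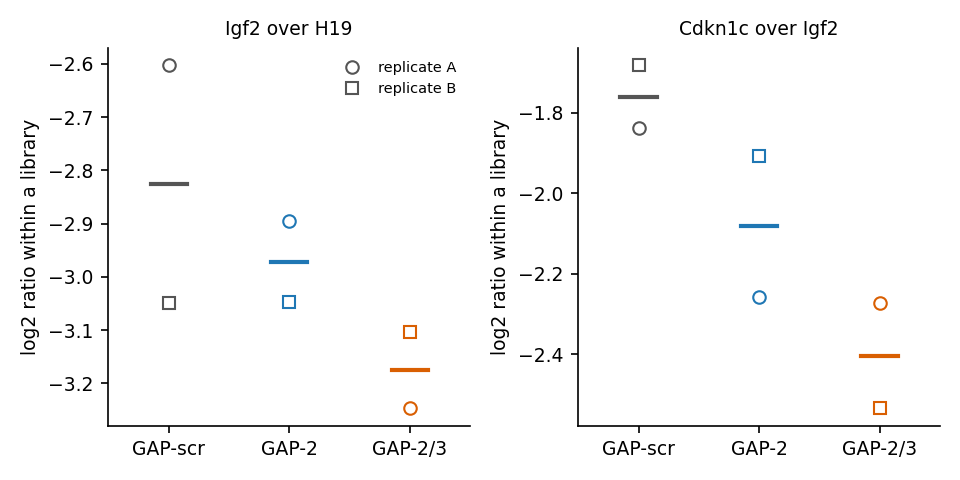
Log2 ratio of Igf2 over H19 and of Cdkn1c over Igf2 within each library, circles for replicate A, squares for replicate B and a bar at each group mean. The group means of Cdkn1c over Igf2 stand at -1.76, -2.08 and -2.40 from GAP-scr to GAP-2/3, and those of Igf2 over H19 at -2.83, -2.97 and -3.18.

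The genes whose log2 values over the 6 libraries were most like each of the 3 that fell were named as a description; only genes averaging 5 FPKM or more entered. The points are the same 6 libraries in 3 groups, so they are not independent. For H19 these were Tm7sf2 (r = 0.991), Cobl (r = 0.987) and Fam96b (r = 0.985). For Igf2 they were Ank3 (r = 0.996), Prpf40b (r = 0.994) and Rusc2 (r = 0.994). For Cdkn1c they were Gid4 (r = 0.993), Dip2c (r = 0.992) and Adamts5 (r = 0.986). Adamts5, a protease of the extracellular matrix, stood at 13.9 and 14.1 FPKM in GAP-scr, 8.90 and 11.4 in GAP-2, and 7.94 and 7.95 in GAP-2/3.

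Position along the chromosome was taken from RefSeq (GRCm38.p6) as the distance between the nearest ends of a gene and H19. Lsp1 lies 80.7 kb to one side of H19 and Igf2 72.6 kb to the other, followed by Cd81 at 475 kb, Tssc4 at 490 kb, Cdkn1c at 880 kb and Nap1l4 at 935 kb. The 3 genes that fell were thus not contiguous: Cd81 and Tssc4 lie between Igf2 and Cdkn1c. Nap1l4, next after Cdkn1c and Phlda2 in the list, had group means of 96.3% and 98.3% of its control mean.

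Of 26 neighbours listed over this stretch, 15 were in the table and tested. This list too was chosen with earlier results of these data known. For both groups 5 of 15 were lower, 3 in GAP-2 and 4 in GAP-2/3, beside 9.57%, 4.18% and 11.3% of all genes tested. Their median changes were -0.19, -0.15 and -0.10, and none was higher by limma (at an unadjusted p of 0.05, 0, 1 and 0). Tnnt3 and Tnni2, the fast-fibre troponins T and I on the Lsp1 side of H19, changed by -0.38 ± 0.10 and -0.44 ± 0.10, and Syt8, a synaptotagmin next to Tnni2, by -0.67 ± 0.12. These 3 were lower in GAP-2, and Syt8 in GAP-2/3 too. For Tnnt3 the GAP-2 call was lost with only the libraries of the groups compared in the fit (adjusted p = 0.0517 by limma). Syt8 was low in level, at 8.67 and 10.5 FPKM in GAP-scr, 4.70 and 5.57 in GAP-2, and 6.80 and 5.65 in GAP-2/3. With the libraries scaled to one median Tnnt3 (adjusted p = 0.0388) and Tnni2 (0.0336) also passed in GAP-2/3, and Tnni2 did under quantile normalization (0.0177). Beyond Nap1l4, Cars, the cysteinyl-tRNA synthetase, changed by -0.47 ± 0.10 and Dhcr7, an enzyme of cholesterol synthesis, by -0.61 ± 0.09; both passed in GAP-2/3. In GAP-2 Cars did not pass, and Dhcr7 passed with the libraries scaled to one median (-0.38, adjusted p = 0.0393) or under quantile normalization (-0.37, 0.0407) but not in the fit reported here. Dusp8, a phosphatase of MAP kinases on the Lsp1 side, also passed in GAP-2/3 (-0.55) but not for both groups (adjusted p = 0.0588 by limma). Its level was low, at 2.52 and 3.87 FPKM in GAP-scr, 2.22 and 2.97 in GAP-2, and 1.92 and 1.75 in GAP-2/3. Dhcr7 stood at 30.1 and 31.8 FPKM in GAP-scr, 24.6 and 25.1 in GAP-2, and 15.9 and 16.1 in GAP-2/3. The count of 5 was 8 without GAP-scr replicate A; that of 3 in GAP-2 was 5 without GAP-scr replicate A and 1 without GAP-2 replicate A, and that of 4 in GAP-2/3 was 2 without GAP-2/3 replicate B. With the libraries scaled to one median it was 7 in GAP-2/3, and under quantile normalization 6. The calls for both groups were lost for Tnnt3 without GAP-2 replicate A (adjusted p = 0.0732) or GAP-2/3 replicate B (0.0593), and for Tnnt3 (0.101) and Cars (0.0601) without both libraries high in Rn45s.

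**Figure D4:**
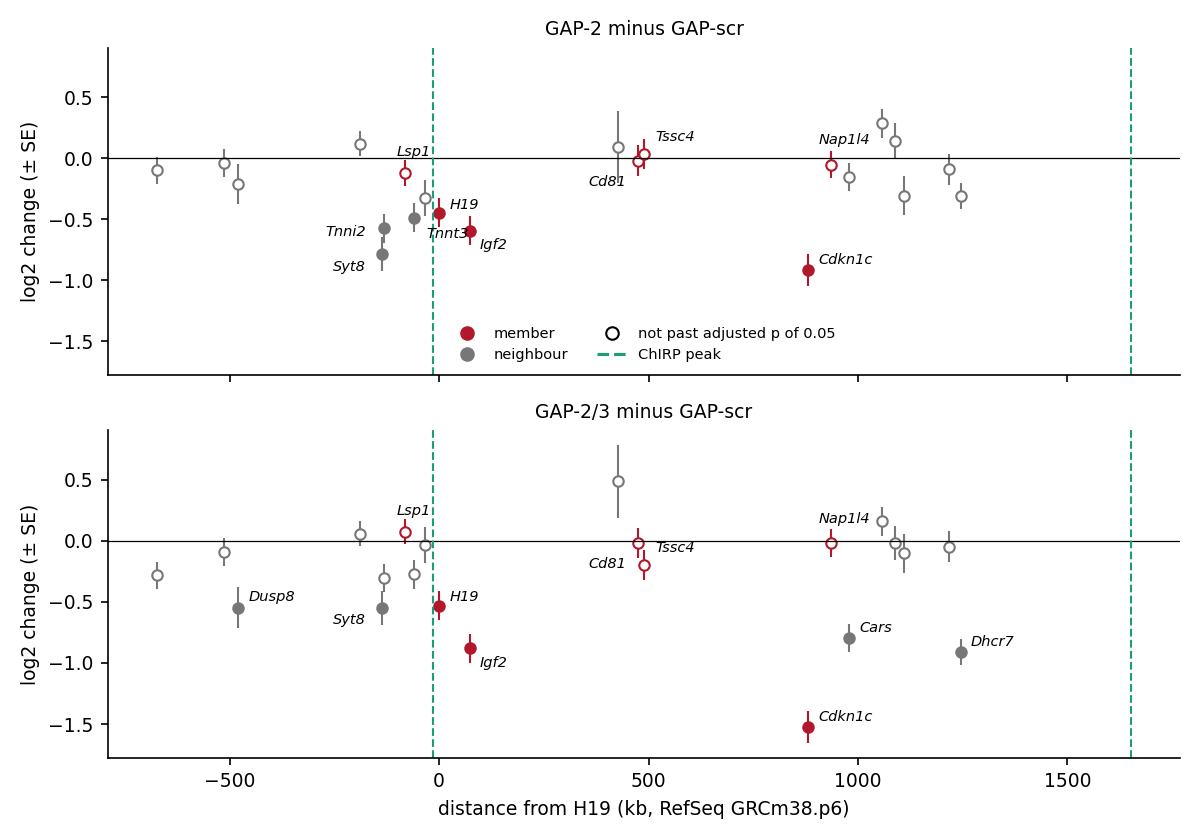
Change of the 7 genes (red) and 15 neighbours (grey) against distance from H19 in kb, for GAP-2 and GAP-2/3, with bars of 1 SE, open points where the adjusted p was not below 0.05 and dashed lines at ChIRP peaks. Lower past the threshold are H19, Igf2, Cdkn1c and Syt8 in both groups, Tnnt3 and Tnni2 in GAP-2, and Dusp8, Cars and Dhcr7 in GAP-2/3. Mrpl23, Lsp1 and Ctsd on one side of H19, and Cd81, Tssc4 and Nap1l4 on the other, are open points in both groups.

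The merged ChIRP list held 798 peaks, of which 2 fell in this stretch of chromosome 7. The build of the list was inferred to be GRCm38 from its positions, although the submitters' processing notes name mm9. The nearer peak, at chr7:142560946-142561128, spans 183 bases and lies 14.4 kb from H19, on the side of Lsp1. It is 2.35 kb from Nctc1, a non-coding gene not in the expression table, and 20.2 kb from Mrpl23, a mitochondrial ribosomal protein gene. The authors' score of that peak was 3279, rank 323 in the list, whose median score was 2913. The other peak, at chr7:144229947-144230028, spans 82 bases within Shank2, 1652 kb from H19, with a score of 3830. The list gives no value per probe set, so no test could be made.

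H19, Lsp1 and Igf2 lay within 100 kb of a peak, at 14.4, 66.1 and 89.6 kb, all of the same peak. That is 3 of 7 genes, against 9.37% of 10950 tested genes with a position; since the genes share 1 peak, they count as 1 observation. Within 10 kb there were 0 of 7, against 2.53%. Of these 3, H19 and Igf2 fell and Lsp1 did not pass the test. Cdkn1c lay 769 kb from its nearest peak. Tnnt3, at 44.7 kb, and Mrpl23 were the 2 of 15 neighbours within 100 kb; Mrpl23 changed by -0.18 ± 0.13 for both groups and did not pass.

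Igf2 acts through receptors and binding proteins, and 13 of 16 listed genes of this axis were tested. For both groups 3 were lower and 3 higher, beside 9.57% and 24.5% of all genes tested, so the share of higher genes was near that of all genes. The median change was -0.13 against 0.10 for all genes. Igf1r, the signalling receptor, fell by 0.57 and Igf2r, the receptor that clears Igf2 and is itself imprinted, fell by 0.49, together with the binding protein Igfbp3 (-0.44). Igf2r stood at 48.7 and 44.1 FPKM in GAP-scr, 36.0 and 33.5 in GAP-2, and 28.2 and 33.7 in GAP-2/3, with all depleted libraries below the controls. Irs1, the adaptor downstream of the receptor, rose by 0.70 and the binding protein Igfbp4 by 0.39. Igfbp6, another binding protein, rose by 0.86 in GAP-2 and by 1.15 in GAP-2/3. Igfbp6 stood at 44.4 and 48.1 FPKM in GAP-scr, 80.0 and 89.1 in GAP-2, and 98.2 and 109 in GAP-2/3. In GAP-2, 3 were lower (Igf1r, Igf2r and Igfbp3) and 3 higher (Irs1, Igfbp2 and Igfbp6), beside 4.18% and 10.4% of all genes tested. In GAP-2/3, 4 were lower (Igf1r, Igf2r, Igf2bp2 and Igfbp5) and 3 higher (Irs1, Igfbp4 and Igfbp6), beside 11.3% and 28.0%. Igfbp4 thus did not pass in GAP-2, nor Igfbp3 in GAP-2/3. With the libraries scaled to one median these splits were 3 and 1, and 5 and 2. Irs1 then did not pass in GAP-2 (adjusted p = 0.0539, and 0.0521 under quantile normalization). The GAP-2 count of 6 was 1 without GAP-2 replicate A or B, and 3 without either GAP-2/3 library or without both libraries high in Rn45s; the GAP-2/3 count of 7 was 3 without GAP-2/3 replicate A.

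Cdkn1c is 1 of several brakes on the cell cycle, and 14 of 18 other genes of that machinery were tested. For both groups 4 were higher and none lower by limma (1 lower at an unadjusted p of 0.05), beside 24.5% and 9.57% of all genes tested, so the share of higher genes was near that of all genes. The median change was 0.15. The 4 were the cyclins Ccnd1 (1.32 ± 0.10) and Ccne1 (0.43 ± 0.11) and the kinases Cdk4 (0.52 ± 0.10) and Cdk1 (0.49 ± 0.11). Ccnd1 stood at 14.8 and 17.9 FPKM in GAP-scr, 38.1 and 39.7 in GAP-2, and 43.1 and 47.7 in GAP-2/3, without overlap. Of the other inhibitors of the family of Cdkn1c, Cdkn1a (p21) fell by 0.37 in GAP-2/3 (adjusted p = 0.0189 by limma) and changed by -0.07 in GAP-2, and Cdkn1b (p27) changed by 0.22 for both groups and did not pass. In GAP-2, 2 were higher (10.4% of all genes), and in GAP-2/3, 5 were higher and 1 lower (28.0% and 11.3% of all genes). Without both libraries high in Rn45s the calls for both groups were lost for Cdk1 (adjusted p = 0.0688) and Ccne1 (0.153); Ccne1 was also lost under quantile normalization (0.0778) and without GAP-scr replicate A (0.0711) or GAP-2/3 replicate A (0.0588). The GAP-2/3 count of 6 was 3 without GAP-2/3 replicate A, and the GAP-2 count of 2 was 1 without any 1 of the 4 depleted libraries and under both other scalings, where Cdk4 did not pass (adjusted p = 0.0536 with one median, 0.0619 with quantile normalization).

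Of 14 listed imprint regulators and chromatin factors, 11 were tested, and 4 were higher for both groups, where 24.5% of all genes tested were. They were the insulator protein Ctcf (0.32 ± 0.10), the cohesin subunits Smc1a (0.39 ± 0.10) and Smc3 (0.39 ± 0.12), and the Polycomb subunit Eed (0.30 ± 0.11). Ctcf stood at 13.2 and 11.5 FPKM in GAP-scr, 14.4 and 14.4 in GAP-2, and 16.2 and 17.9 in GAP-2/3. In GAP-2/3, 4 were higher (28.0% of all genes). These were Ctcf, Smc1a, Smc3 and another Polycomb subunit, Ezh2 (0.36, adjusted p = 0.0329 by limma). Eed did not pass in GAP-2/3 (adjusted p = 0.153 by limma). In GAP-2, 0 of 11 passed by limma in either direction, with 2 higher at an unadjusted p of 0.05. The 4 calls for both groups depended on the scaling. With the libraries scaled to one median Ctcf (adjusted p = 0.0798), Smc3 (0.0811) and Eed (0.154) did not pass and 1 gene was left. None of the 4 passed without GAP-scr replicate B, with Smc1a at 0.0575. Left out in turn, GAP-2 replicates A and B left 2 and 1 calls and GAP-2/3 replicates A and B left 1 and 2; in GAP-2/3 the count of 4 was 1 without either of its libraries.

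**Figure D5:**
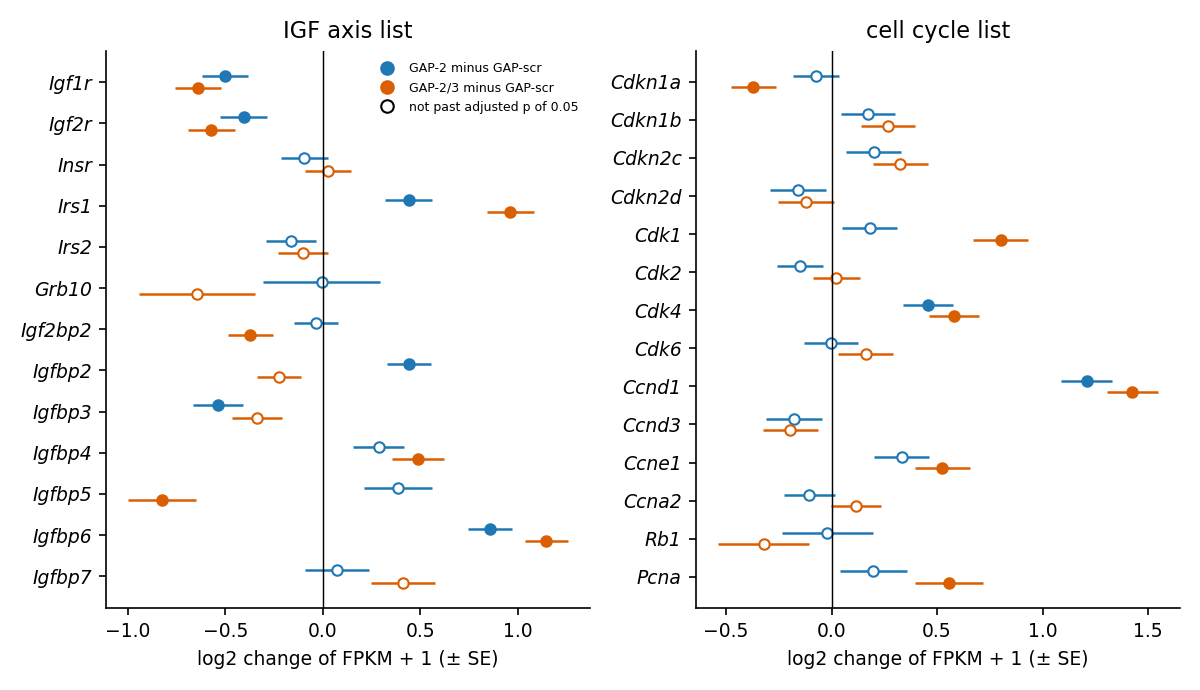
Change against GAP-scr on the log2(FPKM + 1) scale of the 13 tested genes of the IGF axis and the 14 of the cell cycle, for GAP-2 and GAP-2/3, with bars of 1 SE and open points where the adjusted p was not below 0.05. Igfbp6 and Ccnd1 lie farthest to the right in both groups, and Igf1r and Igf2r lie left of 0 in both.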

How the data were processed

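FPKM values per gene and library were deposited by the authors in 1 table, and the merged ChIRP peaks as positions with a score each, which the authors' file does not define. The submitters' processing notes name Bowtie2, TopHat2, Cufflinks, Cuffdiff, MACS, bedtools and others with the build mm9, without roles. The 10993 genes averaging 1 FPKM or more (235 averaged less) were tested with limma 3.58.1 in R 4.3.3 on log2(FPKM + 1), with an intensity trend, the 6 libraries in 1 fit of 3 groups, and Benjamini-Hochberg adjustment over all genes. Intervals are at 95%. The peak list's build was inferred to be GRCm38: 1 peak ends at position 170732078 of X, farther than that chromosome reaches in mm9; its mm9 length is common knowledge and was not read from a file. Distances and sequences came from RefSeq tables of GRCm38.p6, handled with Python 3.11.15 and scipy 1.17.1. The sources used here do not state strand use in counting.

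The members, gene lists and the rule for named genes were chosen with earlier results of these data known. That rule took all members and, up to a fixed number, the genes of each list with the smallest p for both groups. It also took list genes with a peak within 100 kb, neighbours past the threshold and the 3 genes most like each fallen member. Genes named beside these, such as Igfbp3, Igfbp4 and Cdkn1a, were chosen after their values were seen. The planned ratio of Cdkn1c over Phlda2 was not run, since Phlda2 is not analysed here.

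In data simulated for the 10993 genes with 100 changed by 1 and 100 by 0.5, the comparison of both groups recovered 100% of changes of 1 and 73% of changes of 0.5 on the log2 scale, with 18 unchanged genes called. For GAP-2 the shares were 100% and 54% (15 called), and for GAP-2/3 100% and 59% (12 called). In the measured data 14.6% of genes were called for GAP-2, 39.3% for GAP-2/3 and 34.1% for both groups, far more than were changed here. Recovery at such shares was not tested. The simulated noise was normal, with the spread of each gene as estimated by limma, so the noise of the measured data may differ from it. Alternatives tried were another pseudocount (0.1), other filters (none, or 5 FPKM), scaling to one median, quantile normalization, no trend, the replicate letter as a block, fewer libraries, a threshold of 0.1, and other peak definitions. Leaving out both libraries high in Rn45s was chosen after seeing the data.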

Additional observations from a re-analysis of the deposited data

Results flagged for a closer look

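Between GAP-2/3 and GAP-2, 7 genes of the cluster and of the neighbour, IGF axis, cell cycle and imprint regulator lists differed by a direct test of the arms (limma, adjusted p below the threshold), on the log2(FPKM + 1) scale. They were 1 of 7 members, 2 of 15 neighbours, 1 of 14 cell cycle genes and 0 of 11 imprint regulators. Of 13 IGF axis genes 2 were lower and 1 higher. Of all genes tested 10.1% differed (1115 of 10993). Cdkn1c differed by -0.61, with lower values in GAP-2/3. Among its chromosome neighbours Cars differed by -0.64 and Dhcr7 by -0.60. In the IGF axis Irs1 differed by 0.52, Igfbp2 by -0.67 and Igfbp5 by -1.21. In the cell cycle list Cdk1 differed by 0.62. Of the cell type markers 6 differed too: Myog by 0.43, Id3 by 0.81, Pdgfra by 0.58, Dcn by 0.79, Col1a1 by -0.75 and Cd68 by -1.06.

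Igfbp5, a binding protein of Igf2, stood at 314 and 222 FPKM in GAP-scr, 375 and 317 in GAP-2, and 129 and 171 in GAP-2/3, so that both GAP-2 libraries lay above both controls and both GAP-2/3 libraries below them. Igfbp2 stood at 120 and 140, 172 and 181, and 115 and 107 FPKM, in the same arrangement. Leaving out 1 library of the arms ended the call for Cdkn1c, Cars, Dhcr7, Irs1 and Cdk1 in at least 1 case each, and without GAP-2/3 replicate A 0 genes of the IGF axis differed.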

How the results depend on the processing

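Depth is unknown with FPKM values, 2 libraries a group limit the precision, and a fit without 1 library assumes that a lone library varies like the others. No member changed direction past the threshold in any alternative. For both groups the count of members that passed was 3 in every alternative. With 1 library left out in turn it ran from 1 to 3 for GAP-2, from 2 to 3 for GAP-2/3 and from 0 to 2 for GAP-2/3 against GAP-2, where it was also 2 with only the libraries compared; without both libraries high in Rn45s the GAP-2 count was 2. The ratio of Igf2 over H19 differed by -0.47 to -0.025 and that of Cdkn1c over Igf2 by -0.59 to -0.39 with 1 library left out. No member lay within 10 kb of a peak (0).

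Same-lettered libraries did not deviate together across all pairs of groups (r = 0.36 for GAP-scr and GAP-2, -0.131 for GAP-scr and GAP-2/3, -0.181 for GAP-2 and GAP-2/3). With the letter as a replicate block the members passing were 3, 3, 3 and 1 as before, and all genes passing were 1955, 4466, 3944 and 1469; 1 imprint regulator then passed between the arms.

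All genes past the threshold ranged from 504 (without GAP-2 replicate B) to 2624 (without GAP-scr replicate A) for GAP-2, from 1538 (without GAP-2/3 replicate A) to 5348 for GAP-2/3, from 2080 (without GAP-2/3 replicate A) to 4842 for both, and from 195 (without GAP-2/3 replicate A) to 2055 (only the libraries compared) between the arms. Neighbours ranged from 1 to 5, 2 to 7, 4 to 8 and 0 to 2 over these comparisons, the IGF axis from 1 to 7, 3 to 10, 4 to 9 and 0 to 5, the cell cycle from 1 to 3, 3 to 7, 2 to 7 and 0 to 3, and imprint regulators from 0 to 3, 1 to 5, 0 to 5 and 0 to 1. The cause was not tested.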

Other observations

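In 3 genes of the lists, chosen after their values were seen, the 2 GAP-scr libraries lay far apart. Grb10, an imprinted adaptor of the insulin receptor family, stood at 5.39 FPKM in control library A and 1.75 in control library B, with the depleted libraries between 1.57 and 3.98. Tspan32, a tetraspanin gene of the same stretch of chromosome 7, stood at 9.01 and 21.2 FPKM, with the depleted libraries between 11.6 and 20.0. Rb1, the retinoblastoma gene, stood at 77.3 and 41.3 FPKM, with the depleted libraries between 45.0 and 60.2. None of the 3 passed the test for both groups, and all were higher or lower in the GAP-scr library high in Rn45s than in every other library of the series.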
